A study of Mus musculus with 6 samples.

Results

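The Toll-like receptors and the co-receptor gene Cd14 were followed in bone marrow macrophages of mice before and after they received a human lymphoma. The members were chosen by gene symbol in the deposited gene table, and all 10 were found among its 17528 listed genes. They were separated into 5 receptors of the cell surface (Tlr1, Tlr2, Tlr4, Tlr5 and Tlr6), the co-receptor Cd14, and 4 receptors of endosomes (Tlr7, Tlr8, Tlr9 and Tlr13). All 10 passed the filter on low values. By day 18 after engraftment 8 of the 10 were higher than in ungrafted mice, where 18.0% of all tested genes were called higher. Tlr1, Cd14 and Tlr9 had the largest changes, although that of Tlr1 depends on how reads shared with Tlr6 were divided, and the pair summed rose by less than Cd14 (1.34 against 1.62 on the log2 scale). The values for Tlr4 and Tlr5 did not pass the test in that comparison.

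Toll-like receptors are membrane proteins that bind conserved molecules of microbes or of damaged cells through an outer horseshoe of leucine-rich repeats, and signal through an inner TIR domain. Surface receptors bind lipopeptides, lipopolysaccharide and flagellin, while endosomal receptors bind nucleic acids that were taken up and broken down in endolysosomes. Most recruit the adaptor MyD88, which leads to NF-kB and to interferon regulatory factors, and in macrophages this drives cytokine genes. CD14 has no signalling domain of its own: it hands lipopolysaccharide to TLR4 and its partner MD-2, and also serves TLR2.

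All mice were BALB/c with the genotype RAG2-/-γc-/-, so grafted and ungrafted animals alike carried that genotype, which leaves mice without mature T, B and NK cells. Day 0 mice had no graft, and day 4 and day 18 mice were sampled 4 and 18 days after intravenous engraftment of Raji, a human Burkitt lymphoma cell line. Femur cells sorted as CD11b+F4/80+ gave 2 libraries for each day, 6 in all, called A and B after the deposited columns. No ungrafted mice of the later days were part of the design, so graft, injection and elapsed time cannot be told apart. Nothing in the labels ties a library to its own animal, so the p-values reflect library-to-library variation alone, and this could be technical.

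Between 20073063 and 23214573 reads were assigned to listed genes per library, and 14304 genes were tested. Levels are given as RPM, reads per 1000000 assigned reads, which is the deposited RPKM multiplied by the gene's span in kilobases. Changes are log2 fold changes ± standard error from limma on log2(RPM + 0.1) after scaling between libraries, which lowers the change of day 18 against day 0 somewhat relative to the printed levels. The adjusted p-values are Benjamini-Hochberg values over all tested genes, and a gene was called at an adjusted p under 0.05. Transcripts of the sorting markers were present in every library: Itgam, which encodes CD11b, averaged 1981 ± 19.5 RPM at day 18 and 2238 ± 12.1 RPM at day 0 (SD, n = 2 each), and Adgre1, which encodes F4/80, averaged 63.2 ± 0.667 RPM at day 18 and 33.5 ± 1.01 RPM at day 0. Transcripts of late neutrophils were far more abundant than either: the 12 genes of that list summed to 110788 to 111555 RPM at day 18, and to 140762 to 140830 RPM at day 0. In such bulk samples more cells of a type and more RNA per cell cannot be told apart.

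The regions at the start sites of the 4 receptors whose level at least doubled by day 18 are shown first, because these genes rose the most among receptors with an entry. Each window runs from 250 bases before to 50 bases after the start site, on the gene's own strand, from RefSeq on GRCm38.p6, whose chromosomes are those of mm10. Of the 10 members, 7 had an entry, in 9 windows. Capitals mark every match, on either strand, to the NF-kB consensus, the PU-box GAGGAA of the myeloid factor PU.1, the AP-1 motif TGANTCA or the interferon element ISRE (GAAA, any 2 bases, GAAA). The windows lie at chr3:83841559-83841858 (Tlr2, minus strand), chr5:64933509-64933808 (Tlr1, minus strand), chr9:106222348-106222647 (Tlr9, plus strand) and chrX:106143025-106143324 (Tlr13, plus strand).
Tlr2: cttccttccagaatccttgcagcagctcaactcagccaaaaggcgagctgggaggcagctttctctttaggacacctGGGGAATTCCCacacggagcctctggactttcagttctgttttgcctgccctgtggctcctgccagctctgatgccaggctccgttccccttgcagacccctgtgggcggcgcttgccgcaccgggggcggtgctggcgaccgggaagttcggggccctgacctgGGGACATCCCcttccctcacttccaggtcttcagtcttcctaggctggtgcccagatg
Tlr1: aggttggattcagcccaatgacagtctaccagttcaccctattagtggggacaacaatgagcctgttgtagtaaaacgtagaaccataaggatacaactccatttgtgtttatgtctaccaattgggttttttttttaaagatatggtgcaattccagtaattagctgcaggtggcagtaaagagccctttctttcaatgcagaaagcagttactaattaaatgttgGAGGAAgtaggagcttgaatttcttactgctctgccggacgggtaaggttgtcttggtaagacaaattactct
Tlr9: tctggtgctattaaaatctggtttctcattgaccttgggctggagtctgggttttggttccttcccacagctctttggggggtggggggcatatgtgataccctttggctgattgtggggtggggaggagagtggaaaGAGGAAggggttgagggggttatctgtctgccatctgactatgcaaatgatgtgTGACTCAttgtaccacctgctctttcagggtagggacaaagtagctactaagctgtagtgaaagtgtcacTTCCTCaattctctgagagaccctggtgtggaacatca
Tlr13: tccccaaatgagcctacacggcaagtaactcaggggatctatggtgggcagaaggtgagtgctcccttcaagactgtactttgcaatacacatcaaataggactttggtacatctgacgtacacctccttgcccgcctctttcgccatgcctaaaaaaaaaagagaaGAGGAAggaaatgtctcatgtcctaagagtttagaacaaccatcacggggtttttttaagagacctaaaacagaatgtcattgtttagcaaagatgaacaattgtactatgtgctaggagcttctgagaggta

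The window of Tlr2 held the NF-kB consensus at 2 places, with overlapping matches that begin at positions -173 and -172 from the start site and a further match at -8. A PU-box began at -23 in Tlr1, at -83 in Tlr13 and at -112 in Tlr9. The Tlr9 window also held an AP-1 match at -58 and a PU-box on the other strand at 13. A second window of Tlr1, at chr5:64932650-64932949, held no match and is not printed. With that of Tlr8, which had a PU-box on the other strand, 4 of the 9 windows held one. The interferon element was matched in 1 window, of Tlr6, on the other strand at -116 and -110, and that window is not printed. Among all 32851 windows of the same length 28.3% held a PU-box, 8.46% the NF-kB consensus, 7.81% the AP-1 motif and 3.44% the interferon element. These matches describe letters only. Cd14, Tlr4 and Tlr7 are named without a window.

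**Figure D1:**
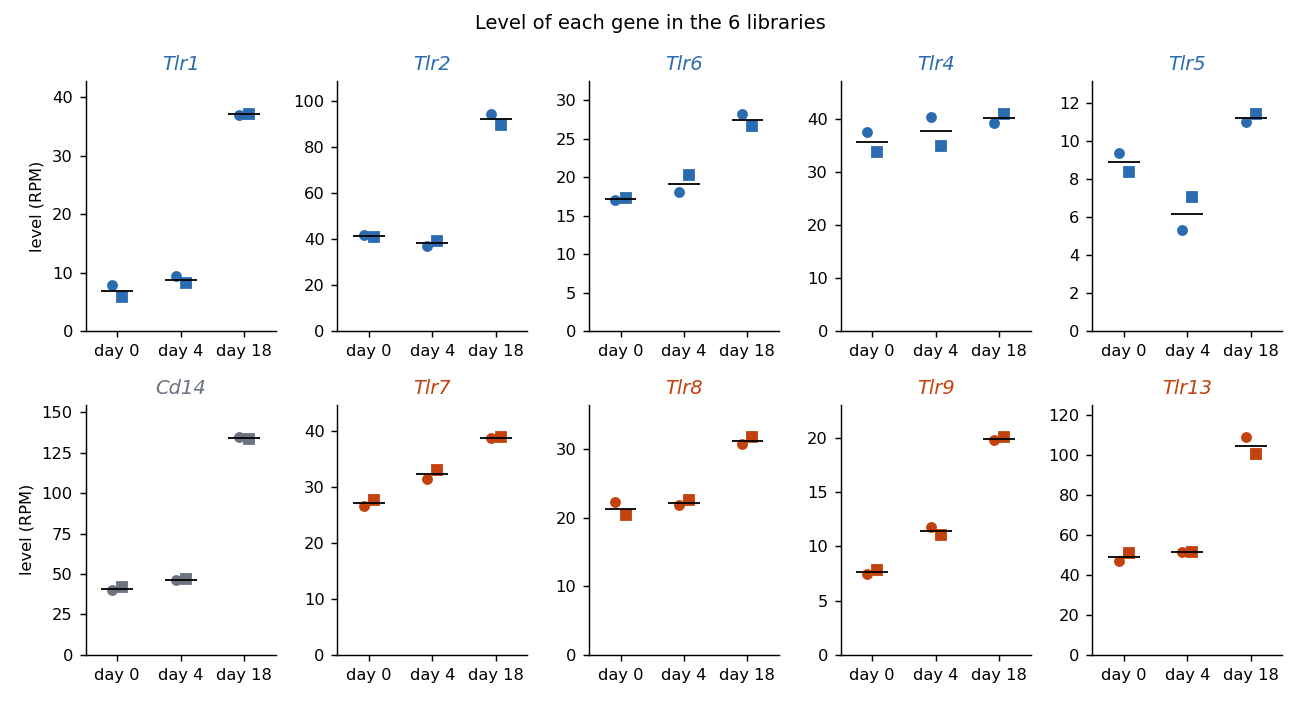
Level of each gene in RPM (y axis, from 0) in the libraries of day 0, day 4 and day 18 (x axis). Circles are libraries A, squares libraries B and black lines the means of 2 libraries, with surface receptors in blue, Cd14 in grey and endosomal receptors in orange. The day 18 libraries of Tlr1, Tlr2, Tlr5, Tlr6, Cd14, Tlr7, Tlr8, Tlr9 and Tlr13 lie above all day 0 and day 4 libraries, while the day 4 libraries of Tlr4 overlap those of day 0 and of day 18.

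Among the surface receptors, the TLR2 group rose together at day 18. Tlr2 (chromosome 3, 83836272 to 83841767, minus strand in mm10) encodes the receptor that recognises bacterial lipopeptides in partnership with TLR1 or TLR6. It stood at 41.9 and 41.0 RPM at day 0 (972 and 918 reads), at 37.0 and 39.3 RPM at day 4, and at 94.6 and 89.7 RPM at day 18 (1898 and 2028 reads). Both day 18 libraries were above all others. Between day 18 and day 0 the log2 fold change was 1.06 ± 0.0649 (2.09-fold, adjusted p = 2.65e-13).

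Tlr1 (chromosome 5, 64924679 to 64933563, minus strand) encodes the partner with which TLR2 binds triacylated lipopeptides. Its level was 7.94 and 5.80 RPM at day 0, 9.40 and 8.24 RPM at day 4, and 37.0 and 37.2 RPM at day 18. The day 18 libraries were nearly equal and stood far above the other 4, and this was the largest log2 fold change of the 10 members at day 18 against day 0 (2.35 ± 0.139, 5.09-fold, adjusted p = 1.41e-13). Tlr6, its neighbour on the same strand (64952031 to 64960097), encodes the partner of TLR2 for diacylated lipopeptides. It had 17.0 and 17.3 RPM at day 0, 18.1 and 20.3 RPM at day 4, and 28.3 and 26.7 RPM at day 18. Tlr6 also rose, by less: its log2 fold change at day 18 against day 0 was 0.59 ± 0.101 (adjusted p = 3.34e-05).

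Tlr1 and Tlr6 are the only members whose read numbers were not whole. In each library the reads of the pair added up to a whole number, to within 0.00605 reads. These sums were 579 and 517 reads for day 0, 599 and 582 reads for day 4, and 1310 and 1443 reads for day 18. Of the 50-base stretches in Tlr1 transcripts, 13.6% also occur in Tlr6 transcripts, and none of the other 8 members shares such a stretch with a member. The split between the neighbours is therefore uncertain, and their sum does not depend on it. Summed, the pair stood at 65.3 and 63.8 RPM at day 18, against 24.9 and 23.1 RPM at day 0. In a model with the sum as 1 gene, chosen after the data were seen, the log2 fold change was 1.34 ± 0.0780 (2.53-fold, adjusted p = 1.05e-13).

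**Figure D2:**
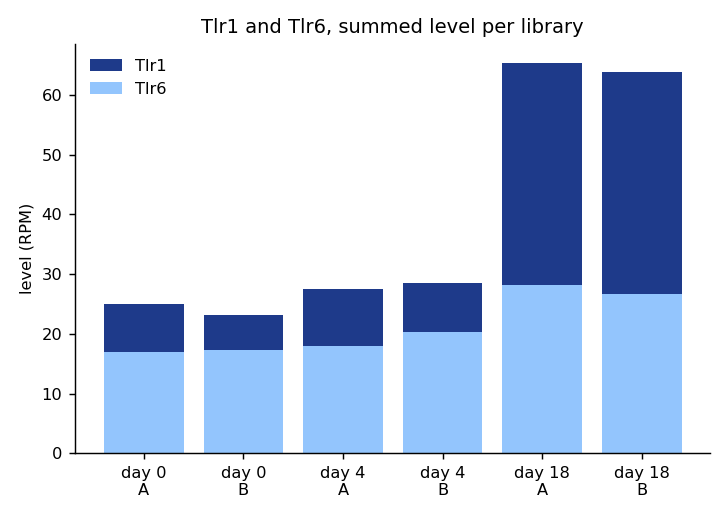
Summed level of Tlr1 (dark) and Tlr6 (light) in RPM (y axis, from 0) in each of the 6 libraries (x axis). The bars reach 65.3 and 63.8 RPM at day 18 and stay at 23.1 to 28.6 RPM in the other 4 libraries, and the part assigned to Tlr1 is the larger one at day 18 and the smaller one before.

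Of the lipopolysaccharide receptor and its co-receptor, Cd14 rose at day 18 and the value of Tlr4 did not pass the test. Cd14 (chromosome 18, 36725067 to 36726798, minus strand) stood at 39.8 and 42.0 RPM at day 0 (925 and 939 reads), 46.1 and 47.0 RPM at day 4, and 134 and 133 RPM at day 18 (2699 and 3015 reads). The day 18 libraries were nearly equal and well above the rest, with a log2 fold change of 1.62 ± 0.0586 against day 0 (3.08-fold, adjusted p = 3.75e-18). Tlr4 (chromosome 4, 66827584 to 66930284, plus strand), which encodes the lipopolysaccharide receptor itself, had 37.6 and 33.8 RPM at day 0, 40.5 and 34.9 RPM at day 4, and 39.2 and 41.0 RPM at day 18. The day 4 libraries of Tlr4 overlapped those of both other days, and the day 18 libraries stood just above day 0 in RPM but overlapped it after scaling. Its change at day 18 against day 0 was 0.08 ± 0.0819 (adjusted p = 0.468), with a 95% interval of the fold from 0.943 to 1.19, which holds neither a doubling nor the change of Cd14. Whether the changes of these 2 genes differ was not tested as such. Ly96, which encodes MD-2, was scarce, with 56 and 55 reads in the day 18 libraries, against 33 and 58 reads in those of day 0 (2.61 ± 0.252 RPM and 2.01 ± 0.829 RPM), and its value did not pass the test (0.34 ± 0.328, adjusted p = 0.468).

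Tlr5 (chromosome 1, 182954788 to 182976044, plus strand), the receptor for bacterial flagellin, followed another course. It had 9.39 and 8.41 RPM at day 0, 5.32 and 7.06 RPM at day 4, and 11.0 and 11.5 RPM at day 18. The day 4 libraries, with 116 and 144 reads, lay below all others and differed most from each other. Tlr5 fell at day 4 against day 0 (-0.58 ± 0.163, adjusted p = 0.0180) and was higher at day 18 than at day 4 (0.83 ± 0.163, adjusted p = 0.000259). Against day 0 its value at day 18 did not pass (0.25 ± 0.163, adjusted p = 0.256). Without day 4 A the fall was smaller, at -0.37 (adjusted p = 0.195), and without day 4 B it was -0.79 (adjusted p = 0.00617). Without day 0 A it was -0.50 (adjusted p = 0.163) and without day 0 B -0.66 (adjusted p = 0.0588), so the call was lost at a similar size. In such fits the lone library of a day is assumed to vary like the other groups.

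All 4 members listed as endosomal receptors rose at day 18 against day 0. That list leaves out the scarce family genes described below, of which Tlr11 fell, Tlr12 rose and Tlr3 did not pass. Tlr9 (chromosome 9, 106222598 to 106226883, plus strand) encodes the receptor for DNA with unmethylated CpG. It stood at 7.45 and 7.83 RPM at day 0 (173 and 175 reads), 11.8 and 11.1 RPM at day 4 (257 and 226 reads), and 19.8 and 20.04 RPM at day 18 (398 and 453 reads). No libraries of different days overlapped, and each later day was above the one before. Its log2 fold change was 0.52 ± 0.128 at day 4 against day 0 (1.44-fold, adjusted p = 0.00624) and 1.29 ± 0.128 at day 18 against day 0 (2.44-fold, adjusted p = 4.64e-09). The rise at day 4 lost its call without day 0 A (0.49, adjusted p = 0.0583).

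Tlr13 (chromosome X, 106143204 to 106160493, plus strand) encodes a receptor that recognises bacterial ribosomal RNA in mice. It had 46.9 and 51.0 RPM at day 0, 51.4 and 51.5 RPM at day 4, and 109 and 100.4 RPM at day 18. The change at day 4 against day 0 did not pass (0.02 ± 0.0616, adjusted p = 0.886), with libraries that overlapped after scaling, and both day 18 libraries were far above them, with a log2 fold change of 1.01 ± 0.0616 against day 0 (2.01-fold, adjusted p = 2.69e-13). On the X chromosome lie also the neighbours Tlr7 (167304929 to 167330558) and Tlr8 (167242696 to 167264329), both on the minus strand. Tlr7, a receptor for single-stranded RNA, had 26.6 and 27.6 RPM at day 0, 31.4 and 33.0 RPM at day 4, and 38.7 and 38.8 RPM at day 18.

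The libraries of Tlr7 stood in the order of days without overlap, although the change at day 4 did not pass the test (0.20 ± 0.0803, adjusted p = 0.119). Its rise at day 18 against day 0 was 0.43 ± 0.0803 (1.35-fold, adjusted p = 9.33e-05). Tlr8, also an RNA receptor, had 22.3 and 20.5 RPM at day 0, 21.8 and 22.7 RPM at day 4, and 30.8 and 31.8 RPM at day 18. Its day 0 and day 4 libraries were mixed, and day 18 was above both (0.46 ± 0.0923 against day 0, 1.38-fold, adjusted p = 0.000208). Tlr7 and Tlr8 had 95% intervals of the log2 fold change of 0.27 to 0.60 and of 0.27 to 0.65, and those of Tlr9 and Tlr13 were 1.03 to 1.55 and 0.88 to 1.14.

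**Figure D3:**
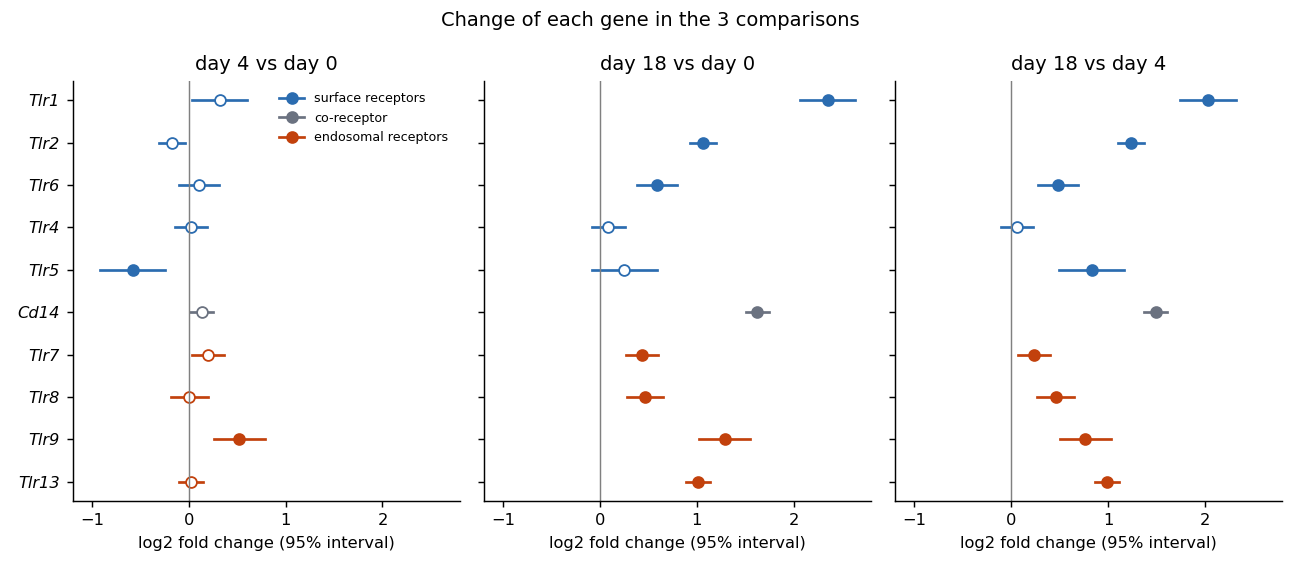
Log2 fold change of each gene (x axis) with its 95% interval from limma for day 4 against day 0, day 18 against day 0 and day 18 against day 4. Filled points were called at an adjusted p under 0.05. At day 4 only Tlr5 (lower) and Tlr9 (higher) were called, while at day 18 all but Tlr4 and Tlr5 were higher than at day 0.

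Late after engraftment, day 18 is set against ungrafted mice. Of the 10 members 8 rose and 0 fell, where 18.0% of all tested genes were called higher and 17.3% lower. By group, 3 of 5 surface receptors, Cd14 and 4 of 4 endosomal receptors rose. The median log2 fold change was 0.59 for the surface and 0.74 for the endosomal receptors, against 0.02 for all tested genes. That surface median is the value of Tlr6 itself, which depends on how reads shared with Tlr1 were divided. The order of the 2 medians is therefore not resolved. Rises of at least 2-fold were seen for 5 members (Tlr1, Cd14, Tlr9, Tlr2 and Tlr13), where 5.4% of tested genes rose that far. Summed over the group, surface receptors stood at 210.0 and 206 RPM at day 18, against 114 and 106 RPM at day 0, and endosomal receptors at 198 and 191 RPM at day 18, against 103 and 107 RPM at day 0.

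The early time point, day 4, is set against the same ungrafted mice. Of the members 1 rose (Tlr9) and 1 fell (Tlr5), where 5.48% of tested genes were called higher and 6.66% lower. These shares leave the 2 calls close to the background. The median log2 fold change of the 10 members was 0.06, and values ran from -0.58 to 0.52. Cd14 (0.13 ± 0.0586, adjusted p = 0.154), Tlr1 (0.32 ± 0.139, adjusted p = 0.152) and Tlr2 (-0.17 ± 0.0649, adjusted p = 0.0872) did not pass. Without day 0 A, Tlr1 passed (0.54, adjusted p = 0.0292). When libraries were scaled by their totals only, 4 members were called, with Cd14 (0.19, adjusted p = 0.0364) and Tlr7 (0.25, adjusted p = 0.0403) added. That scaling also moved the median change of all tested genes to 0.0574, from 0.00477 as reported. With 1 spread for all levels limma called 0 members, with 4 at an unadjusted p under 0.05. Counts over all genes under both settings are given in the closing section.

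Between day 18 and day 4, 9 members rose and 0 fell, where 14.0% of tested genes were called higher and 12.1% lower. The log2 fold changes ran from 0.23 for Tlr7 to 2.03 for Tlr1, and Tlr4 was the member not called (0.06 ± 0.0819, adjusted p = 0.658). This comparison and the others share libraries, so the 3 are not independent of each other. Cd14 stood at 134 ± 0.748 RPM at day 18 and 46.6 ± 0.626 RPM at day 4, and Tlr2 at 92.1 ± 3.41 RPM at day 18 and 38.2 ± 1.66 RPM at day 4 (SD, n = 2 each). The call of Tlr7 (adjusted p = 0.0307) was lost on leaving out day 4 A (adjusted p = 0.151), and likewise for each library of day 18 (adjusted p = 0.130 for A and 0.143 for B).

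Levels of different genes were compared per length, as RPM per kilobase of exon in the GENCODE M21 annotation. At day 0 the order was Cd14 (23.6 ± 0.874), Tlr2 (13.8 ± 0.193), Tlr13 (11.4 ± 0.675), Tlr7 (6.63 ± 0.175), Tlr4 (6.43 ± 0.484), Tlr8 (5.96 ± 0.353), Tlr6 (4.604 ± 0.0604), Tlr9 (2.20 ± 0.0758), Tlr1 (2.05 ± 0.453) and Tlr5 (1.86 ± 0.145). Libraries of the neighbours Tlr7 and Tlr4, Tlr4 and Tlr8, Tlr9 and Tlr1, and Tlr1 and Tlr5 overlapped, so their order is not resolved. At day 4 the order was the same, and the Tlr4 and Tlr8 libraries alone overlapped. At day 18 Cd14 (77.3 ± 0.432), Tlr2 (30.6 ± 1.13) and Tlr13 (24.3 ± 1.35) kept the first places, and Tlr1 (11.1 ± 0.0382) stood next, ahead of Tlr7 (9.50 ± 0.0242). Tlr6 (7.37 ± 0.303) and Tlr4 (7.22 ± 0.230) then overlapped, and Tlr5 (2.35 ± 0.0664) stayed last. These positions of Tlr1 and Tlr6 rest on the split of their shared reads.

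**Figure D4:**
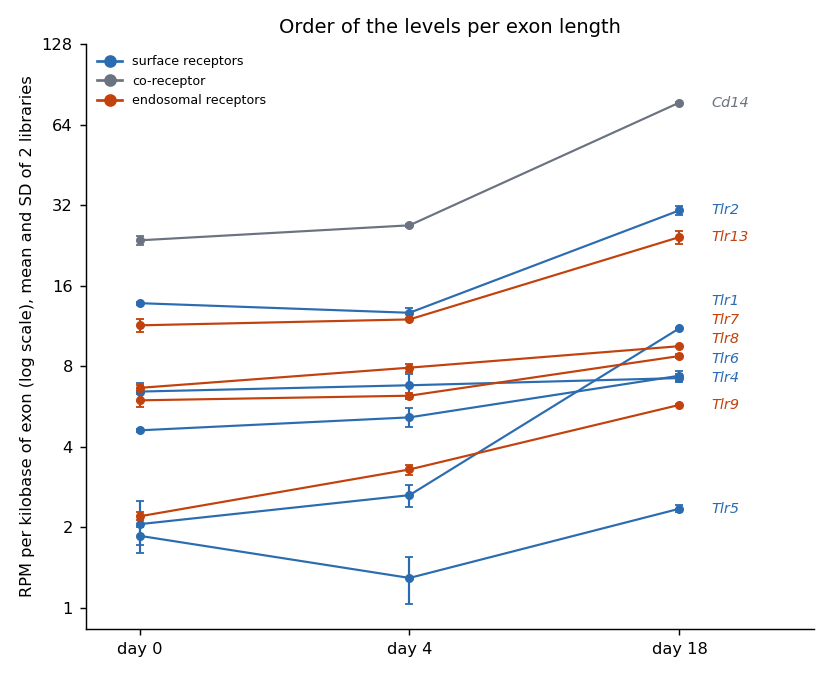
RPM per kilobase of exon (y axis, log scale) at day 0, day 4 and day 18 (x axis), as mean with SD of 2 libraries. Cd14, Tlr2 and Tlr13 are highest on each day, and Tlr1, whose level depends on the split of reads shared with Tlr6, lies near Tlr9 and Tlr5 at day 0 and above Tlr7 at day 18.

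Other family genes were scarce. Tlr11, which with TLR12 recognises a parasite profilin in mice, was counted with 39 and 53 reads in day 0 libraries, 85 and 80 reads in day 4 libraries, and 11 and 20 reads in day 18 libraries. It fell at day 18 against day 0 (-1.47 ± 0.337, adjusted p = 0.00100), opposite to most members. Tlr12 was counted with 3 and 2 reads in day 0 libraries, 8 and 6 reads in day 4 libraries, and 17 and 14 reads in day 18 libraries, and Tlr3, the receptor for double-stranded RNA, had 12 to 40 reads per library. Tlr12 passed the test at day 18 against day 0 (1.93 ± 0.662, adjusted p = 0.0240), with very few reads behind it, and Tlr3 did not (1.00 ± 0.442, adjusted p = 0.0839).

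Among the other genes of the pathway, 27 of 59 tested rose and 9 fell at day 18 against day 0, with a median log2 fold change of 0.15. Beside the 18.0% higher and 17.3% lower of all tested genes, the count of falls is near the background. At day 4 against day 0, 12 rose and 6 fell, where 5.48% of all tested genes were called higher and 6.66% lower. On the RPKM scale 1 of these genes (Ctss) was called higher and 0 lower at day 4, and with 1 spread for all levels limma called 0 of them, with 17 at an unadjusted p under 0.05. The calls at day 4 named below were thus lost under both settings, apart from Ctss on the RPKM scale. Genes that carry receptors to endosomes and cut them there form one list: 9 of 11 rose and 1 fell at day 18. Ctss, cathepsin S, a protease that cuts endosomal receptors, averaged 347 ± 6.72 RPM at day 18 and 98.9 ± 4.93 RPM at day 0 (1.73 ± 0.0395, adjusted p = 2.95e-22), and had already risen at day 4 (0.57 ± 0.0395, adjusted p = 5.56e-11). Unc93b1, the chaperone that brings these receptors to endosomes, averaged 312 ± 10.7 RPM at day 18 and 239 ± 4.92 RPM at day 0 (0.30 ± 0.0332, adjusted p = 3.48e-08). Hsp90b1, the endoplasmic reticulum chaperone that folds most Toll-like receptors, fell at day 18 (-0.20 ± 0.0297, adjusted p = 5.62e-06) and at day 4 (-0.22 ± 0.0297, adjusted p = 6.41e-06), and with 1 spread for all levels its day 18 value did not pass (adjusted p = 0.0715). The reads of Ctss, Unc93b1 and Hsp90b1 were not whole numbers, so their values are uncertain to that extent.

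Of the 4 adaptor genes tested, 1 rose and 1 fell at day 18. Myd88, the shared adaptor, averaged 129 ± 1.499 RPM at day 18 and 88.0 ± 1.93 RPM at day 0 (0.47 ± 0.0473, adjusted p = 6.47e-09). Tirap, which bridges TLR2 and TLR4 to MyD88, fell (-0.29 ± 0.0452, adjusted p = 9.59e-06), and its reads were not whole numbers. Its value at day 4 was -0.15 (adjusted p = 0.0329), a call that was also lost with library totals alone (-0.09, adjusted p = 0.209) and on leaving out any 1 library of day 0 or day 4 (adjusted p = 0.0584 to 0.296). Ticam1, which encodes the adaptor TRIF of TLR3 and TLR4, averaged 21.7 RPM at day 18 and 22.1 RPM at day 0 and did not pass (-0.10, adjusted p = 0.529). Among kinases and ubiquitin ligases 4 of 17 rose and 3 fell at day 18, close to the shares of all tested genes, with Ikbke, an IkB kinase relative, at 0.69 ± 0.0553 and Peli2, a Pellino ligase whose reads were not whole, at -0.27 ± 0.0550 (limma, adjusted p = 8.40e-11 and 0.000266). On the RPKM scale Peli2 did not pass (-0.22, adjusted p = 0.0656). At day 4 the IkB kinase gene Ikbkb rose (0.25 ± 0.0425, adjusted p = 0.000133).

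Of the transcription factors 4 of 5 rose at day 18 and 3 at day 4. Irf5, an interferon regulatory factor downstream of MyD88, averaged 78.4 ± 4.77 RPM at day 18 and 39.4 ± 0.698 RPM at day 0 (0.91 ± 0.0648, adjusted p = 7.37e-12), and stood at 0.58 ± 0.0648 at day 4 against day 0 (adjusted p = 3.56e-07), with reads that were not whole. Of the co-receptors and ligand-handling genes 2 of 8 were higher and 2 lower at day 18, again near the shares of all tested genes: Scarb1, a scavenger receptor, rose (0.42 ± 0.0532, adjusted p = 3.56e-07) and Itgam fell (-0.26 ± 0.0154, adjusted p = 1.30e-13), as it did at day 4 (-0.18 ± 0.0154, adjusted p = 3.22e-09). Cd180, which encodes the Toll-like protein RP105, rose at day 4 against day 0 (0.82 ± 0.111, adjusted p = 6.59e-06) and did not pass at day 18 (0.11 ± 0.111, adjusted p = 0.499). Of 14 brakes on the pathway 7 rose and 2 fell at day 18. Nfkbia, which encodes the NF-kB inhibitor IkB alpha, stood at 0.98 ± 0.0343 at day 18 (adjusted p = 1.90e-18). Tnfaip3, which encodes the deubiquitinase A20, fell at day 4 (-0.36 ± 0.0507, adjusted p = 1.22e-05) and rose at day 18 against day 0, with 216 ± 4.82 RPM at day 18 and 75.9 ± 5.04 RPM at day 0 (1.43 ± 0.0507, adjusted p = 2.94e-18). Nrros, another gene of this list, rose at day 4 (0.21 ± 0.0371, adjusted p = 0.000227) and at day 18 (0.36 ± 0.0371, adjusted p = 7.44e-09), both against day 0. Irak3, the inhibitory kinase relative IRAK-M, fell at day 18 (-0.20 ± 0.0501, adjusted p = 0.00211). That call was lost with library totals alone (-0.12, adjusted p = 0.0790), on the RPKM scale (adjusted p = 0.108), with 1 spread (adjusted p = 0.144) and without day 0 B (-0.17, adjusted p = 0.0546).

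**Figure D5:**
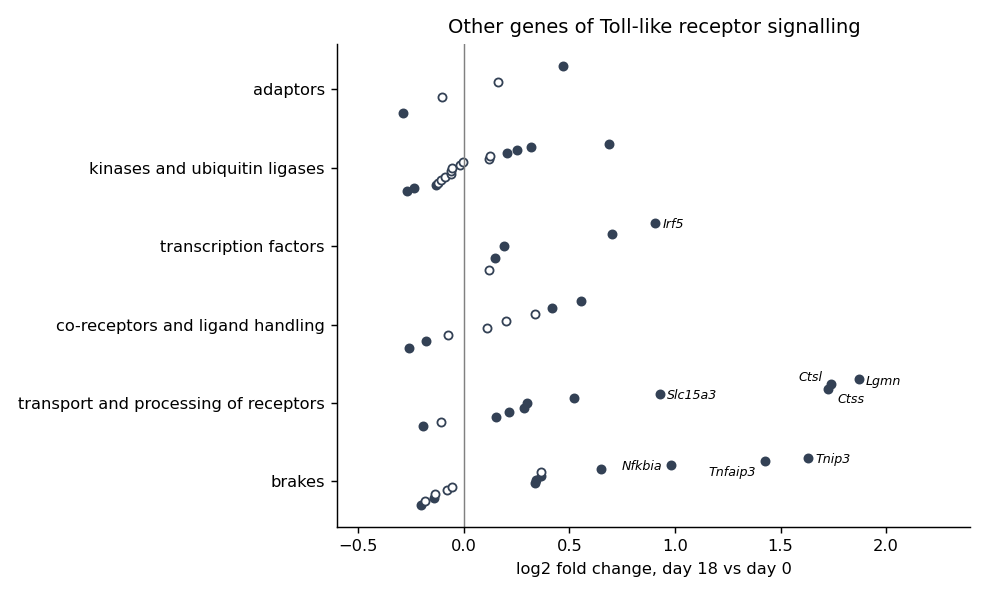
Log2 fold change at day 18 against day 0 (x axis) of the 59 other pathway genes, by list (y axis). Filled points were called at an adjusted p under 0.05, and genes past 0.9 are labelled by size, outside the rule for named genes. The largest rises are those of Lgmn, Ctsl, Ctss, Tnip3 and Tnfaip3.

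Markers of the cells that the sort could hold were counted as well, and their part in the changes of the receptors was not tested. At day 18 against day 0, 18.0% of all tested genes were called higher and 17.3% lower. Of 7 classical monocyte genes 5 rose and 2 fell, with summed levels of 5450 to 5487 RPM at day 18 and 5268 to 5339 RPM at day 0. That sum is mostly Chil3, which fell (2762 ± 3.03 RPM at day 18 and 3824 ± 31.8 RPM at day 0). Eosinophil genes rose in 6 of 7 cases, with sums of 661 to 665 RPM at day 18 and 388 to 393 RPM at day 0. Of the non-classical monocyte genes 6 of 7 rose and 1 fell, of resident macrophage genes 7 of 11 rose and 3 fell, and of early neutrophil genes 4 of 5 rose. Conventional dendritic cell genes summed to 72.4 to 73.0 RPM at day 18 and 31.3 to 33.8 RPM at day 0. Only 1 of these 7 was called higher and 2 were called lower, so the larger sum does not stand for most of the list. Of basophil and mast cell genes 2 of 5 fell. Of the 4 genes listed for macrophages, which include both sorting markers, 3 rose and Itgam fell. Csf1r stood at 1.36 ± 0.0349 and Cd68 at 1.08 ± 0.0672. Of the late neutrophil genes 1 of 12 rose and 9 fell. Of the 6 tested genes of plasmacytoid dendritic cells, which carry much TLR7 and TLR9, 2 rose and 1 fell. Their list summed to 74.6 to 76.2 RPM at day 18 and 54.8 to 57.0 RPM at day 0. Bst2 (0.77 ± 0.139, adjusted p = 6.22e-05) and Tcf4 (0.51 ± 0.121, adjusted p = 0.00147) rose, and Siglech fell (-2.15 ± 0.624, adjusted p = 0.00782), with 4 and 5 reads at day 18, against 38 and 20 reads at day 0. The 3 B lineage genes analysed here summed to 8.07 to 9.11 RPM at day 18 and 5.77 to 6.30 RPM at day 0, and neither of the 2 tested was called.

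At day 4 against day 0, 5.48% of all tested genes were called higher and 6.66% lower. Of the classical monocyte genes 4 of 7 rose and 2 fell, and of the non-classical ones 6 of 7 rose, while 10 of 12 late neutrophil genes fell. These counts stand beside the rise of Tlr9 and the fall of Tlr5. Early neutrophil genes went the other way from late ones: 5 of 5 rose, with sums of 3724 to 3728 RPM at day 4 and 2213 to 2239 RPM at day 0. Basophil and mast cell genes rose in 3 of 5 cases (37.1 to 38.5 RPM summed at day 4 and 14.2 to 14.5 RPM at day 0). Of resident macrophage genes 1 of 11 rose and 6 fell at day 4, and of eosinophil genes 1 of 7 rose and 4 fell. The genes nearest to the 3 leading members were sought over the 6 libraries by Euclidean distance between log2 levels centred on the day 0 mean, among the 8916 tested genes that averaged 3 or more on the log2 scale. Tlr9 lay nearest to Ccr2, the chemokine receptor of classical monocytes (distance 0.0854), whose log2 fold changes were 0.53 at day 4 and 1.27 at day 18 against day 0, then to Otulinl (0.151) and Filip1l (0.154). Near Tlr1 lay Ctsc, the protease cathepsin C (distance 0.275), and Fam129b (0.403). These neighbours rest on the split of the reads that Tlr1 shares with Tlr6. Cd14 lay nearest to Plekha1 (distance 0.167), Tgif1 (0.168) and Csf2rb2 (0.2401), the last with reads that were not whole.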

How the data were processed

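RNA-seq of 6 libraries of sorted marrow cells was analysed. The submitters' processing notes name STAR 2.5.3a and the build mm10. How reads were counted, and on which annotation, is not given in the sources used here. Values that the authors deposited are RPKM, although the table is called raw counts: after multiplication by the gene span in kilobases, every column adds up to 1000000. Reads per library were taken from the spacing of low values, and 77.5% to 78.9% of values were whole reads within 0.05 reads (plus 1e-05 per read).

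The RPM were scaled between libraries by the trimmed mean of M values (0.3 of M and 0.05 of A values trimmed) and the factors ranged from 0.967 to 1.03. Genes were tested where at least 2 libraries reached 0.453 RPM (10 reads at the median depth) and the reads summed over all 6 libraries were at least 15. Log2(RPM + 0.1) was fitted with limma 3.58.1 in R 4.3.3 in 1 model of all 6 libraries, using a trend of spread with level and robust moderation. There were 3 residual degrees of freedom, and 22.9 prior ones at the median gene. The procedure was tested on simulated data. The pseudocount shrinks the changes of sparsely read genes. Standard errors of log2 changes had a median of 0.115, and depth limits genes such as Ly96. Alternatives covered the scaling, pseudocount, filter, unit, spread, libraries and genes in the fit, and a replicate block.

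The members and gene lists were chosen with earlier results of these data known. Named pathway genes were, in each list, the called gene with the smallest p in each direction at day 18 or day 4 against day 0, plus Ly96, Myd88, Ticam1, Unc93b1 and Irak3; Csf1r, Cd68, Adgre1, Chil3, Bst2, Tcf4 and Siglech were named from the marker lists after their values were seen. A gene that the rule would name is not reported here. Python 3.11.15, pandas 2.3.3, numpy 2.4.6 and matplotlib 3.10.9 were used for tables and figures.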

Additional observations from a re-analysis of the deposited data

Results flagged for a closer look

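The changes at day 4 and at day 18, both against the same day 0 libraries, differed for 9 members by the direct test of day 18 against day 4. All 9 stood higher at day 18 than at day 4, where 14.0% of all tested genes were called higher. These log2 differences were 2.03 for Tlr1, 1.24 for Tlr2, 0.83 for Tlr5, 0.49 for Tlr6 and 1.49 for Cd14 at the surface, and 0.23 for Tlr7, 0.46 for Tlr8, 0.77 for Tlr9 and 0.99 for Tlr13 in endosomes (limma). For Tlr5 the value at day 4 lay below day 0 (-0.58) and that at day 18 above it (0.25), and likewise for Tlr2 (-0.17 and 1.06). The day 18 value of Tlr5 (limma, adjusted p = 0.256) and the day 4 value of Tlr2 (adjusted p = 0.0872) did not pass. A change of direction was therefore not shown for either gene. No group had enough libraries to look for single libraries far from the others.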

How the results depend on the processing

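Over 18 alternatives, the 8 rises at day 18 against day 0 kept their call in each one (with Tlr1 and Tlr6 summed, as 1 gene), and no called member changed direction in any comparison. None of the alternatives divided the reads shared by Tlr1 and Tlr6 in another way. The separate calls of these 2 genes were therefore not checked against that split. At day 4 against day 0 neither of the 2 calls held throughout. The members called there were 4 with library totals alone, 1 on the RPKM scale and 0 with 1 spread for all levels, and 1 to 2 when 1 library was left out. Between day 18 and day 4, 7 of 9 calls held throughout. Tlr7 lost its call on the RPKM scale (adjusted p = 0.0566) and with 1 spread (0.0850), and Tlr5 with 1 spread (0.0582).

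Counts over all genes depended on the model of the spread. Against 1736, 5048 and 3726 called genes at day 4 against day 0, day 18 against day 0 and day 18 against day 4, 1 spread for all levels gave 0 (limma, with 2454 genes at an unadjusted p under 0.05), 2646 and 1352, and the RPKM scale gave 95 in the first and 2130 in the last comparison. Leaving out 1 library gave 922 to 1594, 3707 to 5353 and 2626 to 3601 genes. With library totals alone the median change of all genes at day 18 against day 0 was 0.0986 in place of 0.0153, and the called genes were 3432 higher and 1423 lower in place of 2579 and 2469; at day 4 they were 1261 and 461 in place of 784 and 952, and at day 18 against day 4 2239 and 1338 in place of 1997 and 1729. No broad deviation was shared by libraries of the same letter: their deviations correlated at -0.0419 to 0.00180. That cannot show whether such libraries were handled together. With the letter as a replicate block 1656, 4931 and 3660 genes and 2, 8 and 9 members were called. The cause of these differences was not tested.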
